A study of Arabidopsis thaliana with 12 samples.

Results

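The response of wild-type Arabidopsis thaliana seedlings to the brassinosteroid 24-epibrassinolide (24-eBL) was taken as the difference between seedlings grown with 24-eBL and mock-treated seedlings. It rests on 4 of the 12 arrays in the study, 2 arrays with 24-eBL (100 nM) and 2 mock arrays, chosen by their labels alone. All gene probe sets were read, and every difference is 24-eBL minus mock. The seedlings were of the Columbia ecotype, wild type in genotype and 4 days old. Seeds were kept cold for 3 days, given 8 h of light at 22 °C, and then grown for 4 days in darkness on MS medium with 2% sucrose. 24-eBL was in the medium throughout the dark period, so the values describe seedlings that had grown with the hormone and not a first reaction to it. The other 8 arrays held the same 2 treatments of the mutants msg2 and axr2, in the same ecotype and at the same age. As background, both mutants carry dominant mutations in auxin-response repressors of the Aux/IAA family. RNA came from whole seedlings, so fewer cells of a type and less RNA per cell cannot be told apart.

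As background, brassinosteroids are steroid hormones that bind a receptor kinase at the cell surface. Binding switches off a kinase that otherwise keeps a family of transcription factors inactive, and those factors then raise and lower target genes. In dark-grown seedlings the hormone is known for its part in the elongation of the hypocotyl, which needs loosening and rebuilding of the cell wall. The cell also keeps the hormone in check by lowering its synthesis and by attaching other groups to it.

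Values are log2 MAS 5.0 signals of the Affymetrix ATH1 array as deposited by the submitters. The arrays were already scaled to a common mean, their medians lay between 6.92 and 7.19 over the 12 arrays, and 139 to 436 probe sets per array had a value of exactly 0. Between the 2 arrays with 24-eBL Pearson's r was 0.972 and between the 2 mock arrays 0.977. Between an array with 24-eBL and a mock array it ran from 0.952 to 0.961. The design text calls the 2 arrays of a group biological replicates. Tests used limma on all 12 arrays with Benjamini-Hochberg adjustment over 15025 tested probe sets. A probe set or gene was called at an adjusted p under 0.05. Errors after ± are SEs of the fit with 2 arrays in each group. Signals no higher than the 40th percentile of their own array are called dim. Where the lower group held a dim value, the printed fold is a lower bound ("at least"), computed after lifting dim signals to that percentile. No fold is given where both groups held dim values. Only probe sets paired with a single gene are named, and they covered 8094 tested genes, of which 1152 had a symbol other than their locus identifier. Gene lists were matched by symbol, so family members known here only by a locus identifier are outside the list counts. The dark-grown state given by the labels was not checked against marker genes. All 12 arrays were of dark-grown seedlings, so there was no light-grown sample to compare with.

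A small share of the genes was called with 24-eBL, in both directions and to similar extents. With 2 arrays in each group the share called is not the share that changed. In the limma fit 1248 of the 8094 genes had an unadjusted p under 0.05. Of the 8094 genes 339 were called (4.19%), 162 of them higher (2%) and 177 lower (2.19%). The arrays of the 2 treatments did not overlap for any of the 339, but this was also so for 45.9% of all tested probe sets. No value of the lower group was dim for 124 of the higher and 140 of the lower genes, and their median fold was 1.95 and 1.88. The lower group alone held dim values for 33 and 30 genes, whose fold is a bound, and both groups did for 5 and 7, which get no fold. With bounds counted at their size, 82 of the higher and 83 of the lower genes changed at least 2-fold, and 20 and 12 at least 4-fold. The median change of all tested genes was 0.03, with 4408 genes above 0 and 3686 below it. Of the 339 genes 113 (33.3%), 59 higher and 54 lower, kept their call in each of 12 fits that left out a single array. Fewer probe sets were called when any 1 of the 4 wild-type arrays was left out than with all arrays (701, or 4.67%). Of the 701 probe sets 330 were higher (2.2%) and 371 lower (2.47%).

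**Figure D1:**
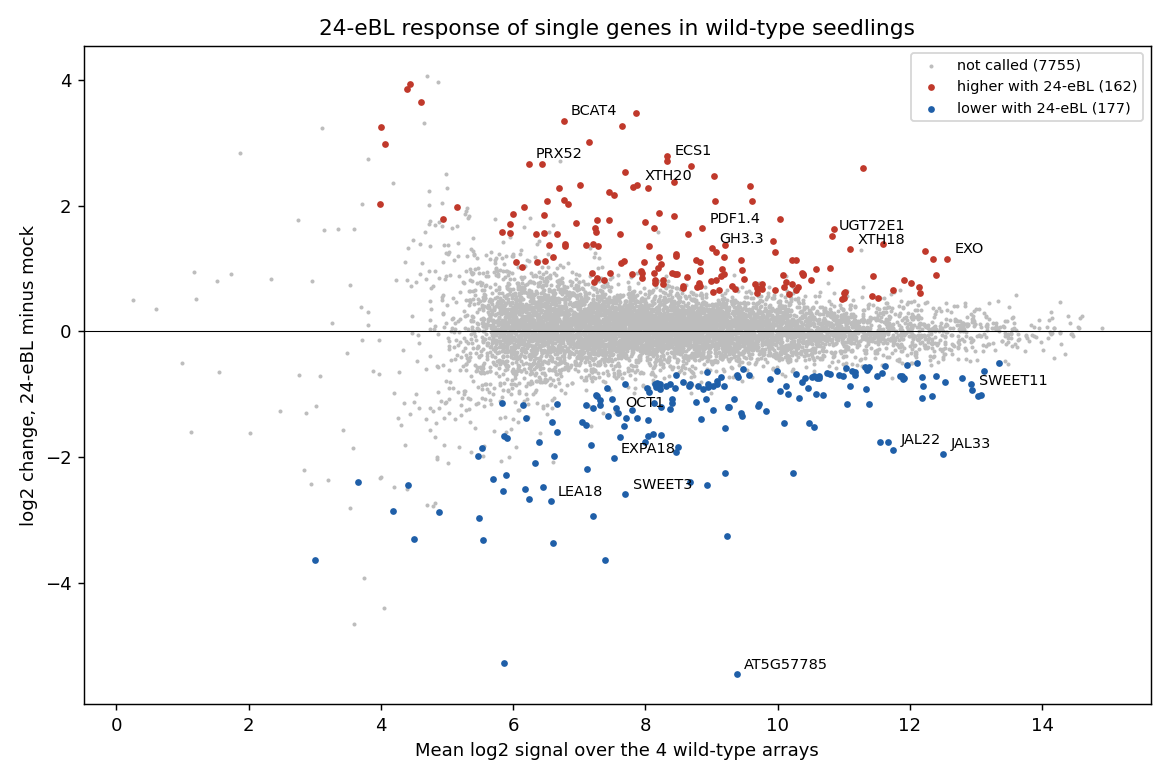
Each point is 1 of the 8094 tested genes in wild type. The horizontal axis is the mean log2 signal over the 4 arrays and the vertical axis is the log2 change, 24-eBL minus mock. Red points are the 162 genes called higher with 24-eBL, blue points the 177 called lower and grey points the 7755 not called. Called changes of under 1 are seen at high signal and seldom at low signal, where the grey points spread widely.

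Among genes with known roles, several of xyloglucan remodelling were higher with 24-eBL. XTH genes encode enzymes that cut xyloglucan chains and rejoin them, and so let the wall extend. Of 10 XTH genes with a single-gene probe set 8 were tested. Of these 4 rose and none fell, beside 4.19% of all tested genes called. The median change was 0.81, against 0.03 over all tested genes. XTH20 had signals of 9.14 and 8.94 with 24-eBL, against 6.96 and 6.47 in mock. Both arrays with 24-eBL were well above both mock arrays. The change was 2.33 ± 0.23, or 5.02-fold (adjusted p = 2.56e-06). XTH18 read 11.73 and 11.77 with 24-eBL, against 10.45 and 10.43 in mock, a change of 1.31 ± 0.21 (adjusted p = 0.000595). Its neighbour on chromosome 4, XTH19, read 12.77 and 12.93 with 24-eBL, against 11.86 and 12.03 in mock, a change of 0.90 ± 0.15 (adjusted p = 0.00066). The arrays of the 2 treatments stood apart for both neighbours, and the spread within a treatment was at most 0.17. The sequences of XTH18 and XTH19 are closely related, and cross-hybridisation between their probe sets was not tested. XTH33 had 11.23 and 11.37 with 24-eBL, against 10.34 and 10.25 in mock, a change of 1.0 ± 0.19 (adjusted p = 0.00319). All 4 calls held in all 12 leave-out fits and under all 10 other settings tried. The other 4 members were not called: XTH16 at 0.71 (adjusted p = 0.0723), EXGT-A3 at 0.38, XTH32 at -0.12 and XTH21 at -0.95, the last with dim values in both arrays with 24-eBL.

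Other wall genes moved in both directions. EXO (EXORDIUM) encodes an extracellular protein that promotes growth and is known to respond to brassinosteroids. It had 13.15 and 13.13 with 24-eBL, against 12.04 and 11.93 in mock, so it was among the brightest probe sets and its arrays did not overlap. The change was 1.16 ± 0.14, or 2.23-fold (adjusted p = 2.25e-05). Among 5 tested genes of pectin modification, 2 pectin methylesterase genes rose and 1 fell, beside 4.19% of all tested genes called. The median change of the 5 was 0.35. ATPMEPCRB had 9.93 and 9.86 with 24-eBL, against 8.19 and 8.86 in mock, a change of 1.37 ± 0.22 (adjusted p = 0.000581). PMEPCRF had 10.56 and 10.35 with 24-eBL, against 9.60 and 9.90 in mock, a change of 0.71 ± 0.17 (adjusted p = 0.0163). PME61 went the opposite way, with 6.79 and 6.72 with 24-eBL, against 7.81 and 8.40 in mock. Its change was -1.35 ± 0.27 (adjusted p = 0.00501). The calls of PMEPCRF (without mock replicate 1 or 24-eBL replicate 1) and PME61 (without mock replicate 2) were lost in leave-out fits, with adjusted p up to 0.214 and 0.117. Of 16 tested TBL genes, a family of wall polysaccharide O-acetyltransferases, TBL41 rose and none fell, beside 4.19% of all tested genes called. The median was -0.03. TBL41 had 10.86 and 10.72 with 24-eBL, against 9.52 and 9.79 in mock.

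Expansins are wall proteins that loosen bonds between cellulose and other polysaccharides. Of 15 tested members 1 rose and 3 fell, beside 4.19% of all tested genes called, and the median change was 0.20. The 3 that fell were EXPA18, EXPA7 and EXPA15. EXPA18, known from root hairs, had 6.39 and 6.64 with 24-eBL, against 8.46 and 8.61 in mock, a change of -2.02 ± 0.24. EXPA7, also known from root hairs, had 5.77 and 4.81 with 24-eBL, against 7.18 and 7.58 in mock. Both arrays with 24-eBL were dim for EXPA7, so it was at least 2.42-fold lower. The call of EXPA7 was lost without mock replicate 2 or 24-eBL replicate 2, with adjusted p up to 0.111. GH9C1, an endoglucanase gene and the third tested member of the root-hair list, stood at -0.90 and was not called (adjusted p = 0.672). EXPA15 had 8.45 and 8.57 with 24-eBL, against 9.33 and 9.47 in mock, a change of -0.89 ± 0.19 (adjusted p = 0.0084). Its call was lost without mock replicate 2 or 24-eBL replicate 1, with adjusted p up to 0.088. EXLA3, of the expansin-like branch, rose and had 7.35 and 7.61 with 24-eBL, against 6.04 and 6.15 in mock. Its change was 1.38 ± 0.34 (adjusted p = 0.0224), and leaving out any of the 4 wild-type arrays ended the call, with adjusted p up to 0.139. The other 11 members, EXPA8 and EXPA4 among them, lay between -0.63 and 0.69 and were not called.

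Of 26 tested members of the 3 further wall lists 1 was called, beside 4.19% of all tested genes. Among 10 tested GH9 endoglucanases only GH9B18 was called, with 5.27 on both arrays with 24-eBL, against 6.26 and 6.56 in mock. Both arrays with 24-eBL were dim, and the call (adjusted p = 0.0358) was lost in 8 of 12 leave-out fits. Of 8 tested genes for cellulose synthesis and related enzymes limma called 0, while 4 had an unadjusted p under 0.05. Over all tested genes 1248 of 8094 had an unadjusted p under 0.05. CSLC5, of a family that builds the xyloglucan backbone, had 9.93 and 10.51 with 24-eBL, against 9.32 and 9.70 in mock, and just missed the call (0.71 ± 0.20, adjusted p = 0.0521). Of 8 tested tubulin and actin genes limma called 0 and 2 had an unadjusted p under 0.05. Their changes ran from -0.32 for ACT11 to 0.54 for TUB1.

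**Figure D2:**
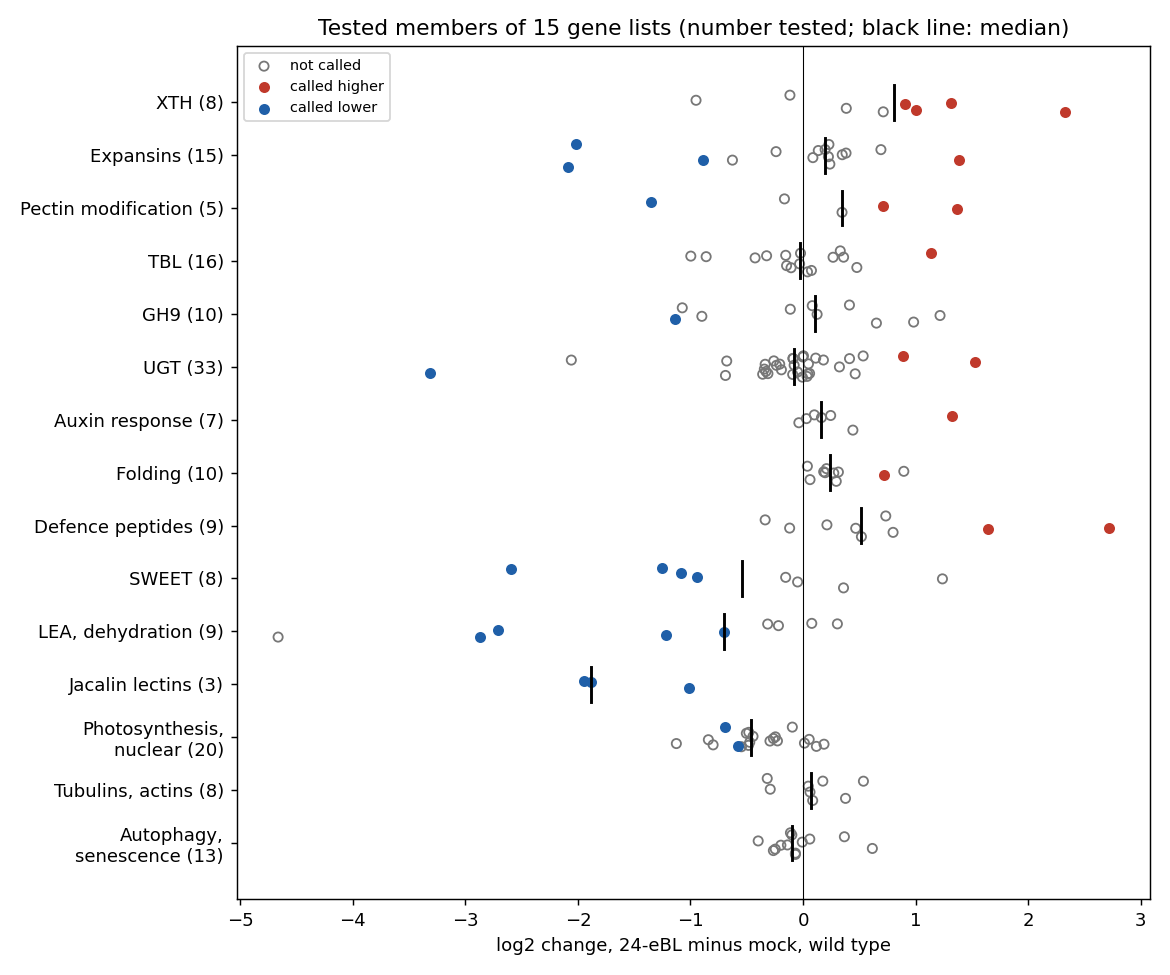
Each row is a gene list with its number of tested members, and each point is 1 member. The horizontal axis is the log2 change in wild type, 24-eBL minus mock, and the black bar is the median of the row. Filled red points are members called higher, filled blue points members called lower and open points members not called. The open point farthest left is M17, whose values were dim in both treatments. XTH has its 4 called members to the right, while the SWEET, LEA and dehydration, and jacalin lectin rows have all their called members to the left.

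Of 9 tested genes of phenylpropanoid and lignin synthesis 1 rose and 1 fell, beside 4.19% of all tested genes called. The median was -0.21. The member that rose, UGT72E1, encodes a glucosyltransferase that acts on monolignol aldehydes. It had 11.49 and 11.68 with 24-eBL, against 9.96 and 10.16 in mock, a change of 1.52 ± 0.15. The member that fell was CYP84A4, a cytochrome P450 gene, with 8.13 and 8.08 with 24-eBL, against 8.69 and 8.94 in mock. Its change was -0.70 ± 0.18 (adjusted p = 0.0322), and leaving out any of the 4 wild-type arrays ended the call, with adjusted p up to 0.242. FACT, of the wax, cutin and suberin list, encodes the enzyme that joins caffeic acid to fatty alcohols and rose. WSD1, the other tested member of that list, stood at 0.07. FACT had 8.92 and 8.30 with 24-eBL, against 5.91 and 6.98 in mock. The mock arrays differed by 1.07 and 1 of them was dim, and still both lay below both arrays with 24-eBL. Class III peroxidases are enzymes that cross-link wall phenolics. Of the 3 tested by symbol 2 rose, beside 4.19% of all tested genes called. PRX52 had 7.72 and 7.42 with 24-eBL, against 4.92 and 4.88 in mock. Both mock arrays were dim, and PRX52 was at least 2.9-fold higher (2.67 ± 0.40, adjusted p = 0.000281). Prx37 had 8.05 and 7.82 with 24-eBL, against 7.13 and 6.89 in mock (0.92 ± 0.19, adjusted p = 0.00538). The call of Prx37 was lost without mock replicate 2 or 24-eBL replicate 1, with adjusted p up to 0.077. PRXR1, the third, was bright on all 4 arrays and stood at -0.03. ARPN, a plantacyanin gene whose product is a small copper protein, had 9.40 and 9.20 with 24-eBL, against 8.52 and 8.17 in mock (0.96 ± 0.19, adjusted p = 0.00404). Without mock replicate 2 or 24-eBL replicate 1 its adjusted p reached 0.0809.

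Of 50 UGT glycosyltransferase genes with a single-gene probe set 33 were tested. UGT72E1 and IAGLU rose, 1 fell, and the median change was -0.08. These 3 of 33 stand beside 4.19% called over all tested genes. UGT72E2 and UGT72E3, the relatives of UGT72E1, stood at 0.46 (adjusted p = 0.06) and -0.21 and were not called. The member that fell, UGT85A7, had 3.27 and 2.43 with 24-eBL, against 6.49 and 5.82 in mock. A mock array was dim as well, so no fold is given, and the call was lost in 6 of the 12 leave-out fits.

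Annotated coverage of hormone pathways was thin. Of 69 genes that the brassinosteroid list matched in the gene table only 4 had a single-gene probe set. All 4 were tested, limma called 0, and 1 had an unadjusted p under 0.05, beside 1248 of 8094 over all tested genes. BRL1, which encodes a relative of the brassinosteroid receptor, had 6.09 and 5.12 with 24-eBL, against 5.90 and 6.27 in mock, and the arrays overlapped. BIM1, a transcription factor of the pathway, had 8.53 and 8.27 with 24-eBL, against 8.28 and 8.38 in mock. BRH1, a RING-finger gene named for its brassinosteroid response, had 10.80 and 11.17 with 24-eBL, against 10.58 and 10.90 in mock, and its arrays overlapped too. ARL, a growth regulator of organ size, had 12.08 and 12.58 with 24-eBL, against 11.76 and 12.06 in mock (0.41 ± 0.17, adjusted p = 0.231). Outside this list BAT1, an acyltransferase that lowers active brassinosteroid when overexpressed, fell. It had 9.06 and 9.01 with 24-eBL, against 9.76 and 9.70 in mock, and the spread within each treatment was at most 0.06. The change was -0.69 ± 0.17, or 1.61-fold lower (adjusted p = 0.0269). Leaving out any of the 4 wild-type arrays ended the call, with adjusted p up to 0.171.

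Of 11 tested genes in both auxin lists 2 were called, GH3.3 and WAG2, both higher, beside 4.19% of all tested genes. GH3.3, which joins auxin to amino acids, had 9.70 and 9.65 with 24-eBL, against 8.21 and 8.49 in mock. IAGLU, a member of the UGT list annotated as an auxin glucosyltransferase, was placed here after its values were seen. It had 10.85 and 10.81 with 24-eBL, against 9.94 and 9.93 in mock. The replicates of IAGLU lay within 0.04 of each other in each treatment, and its change was 0.89 ± 0.18 (adjusted p = 0.00506; 0.0527 without 24-eBL replicate 1). GH3.3 was the only one of 7 tested auxin-response genes to be called, and its adjusted p was 0.0637 without mock replicate 1. WES1 and GH3.17, of the same family, stood at 0.25 and -0.04. The Aux/IAA genes IAA29, IAA20 and IAA18 stood at 0.44, 0.16 and 0.03, and none was called. WAG2, a kinase that acts on auxin efflux carriers, had 12.12 and 12.04 with 24-eBL, against 11.47 and 11.37 in mock (0.66 ± 0.18, adjusted p = 0.0404). Leaving out any of the 4 wild-type arrays ended that call, with adjusted p up to 0.214. RTE1, needed for the function of an ethylene receptor, had 10.78 and 11.06 with 24-eBL, against 9.92 and 10.29 in mock (0.81 ± 0.17, adjusted p = 0.00662; up to 0.139 without mock replicate 1 or 24-eBL replicate 2). Of 5 tested gibberellin genes 0 were called by limma. An unadjusted p under 0.05 was found for 1 of them, beside 1248 of 8094 over all tested genes. The gibberellin receptor genes GID1B, GID1C and GID1A stood at 0.54, 0.03 and -0.11. Among 20 tested zinc-finger, bZIP and related factors 1 was called, beside 4.19% of all tested genes. This was bZIP44, of a bZIP group linked to sugar signalling. It had 11.71 and 12.06 with 24-eBL, against 10.96 and 11.04 in mock (0.89 ± 0.15, adjusted p = 0.00133).

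**Figure D3:**
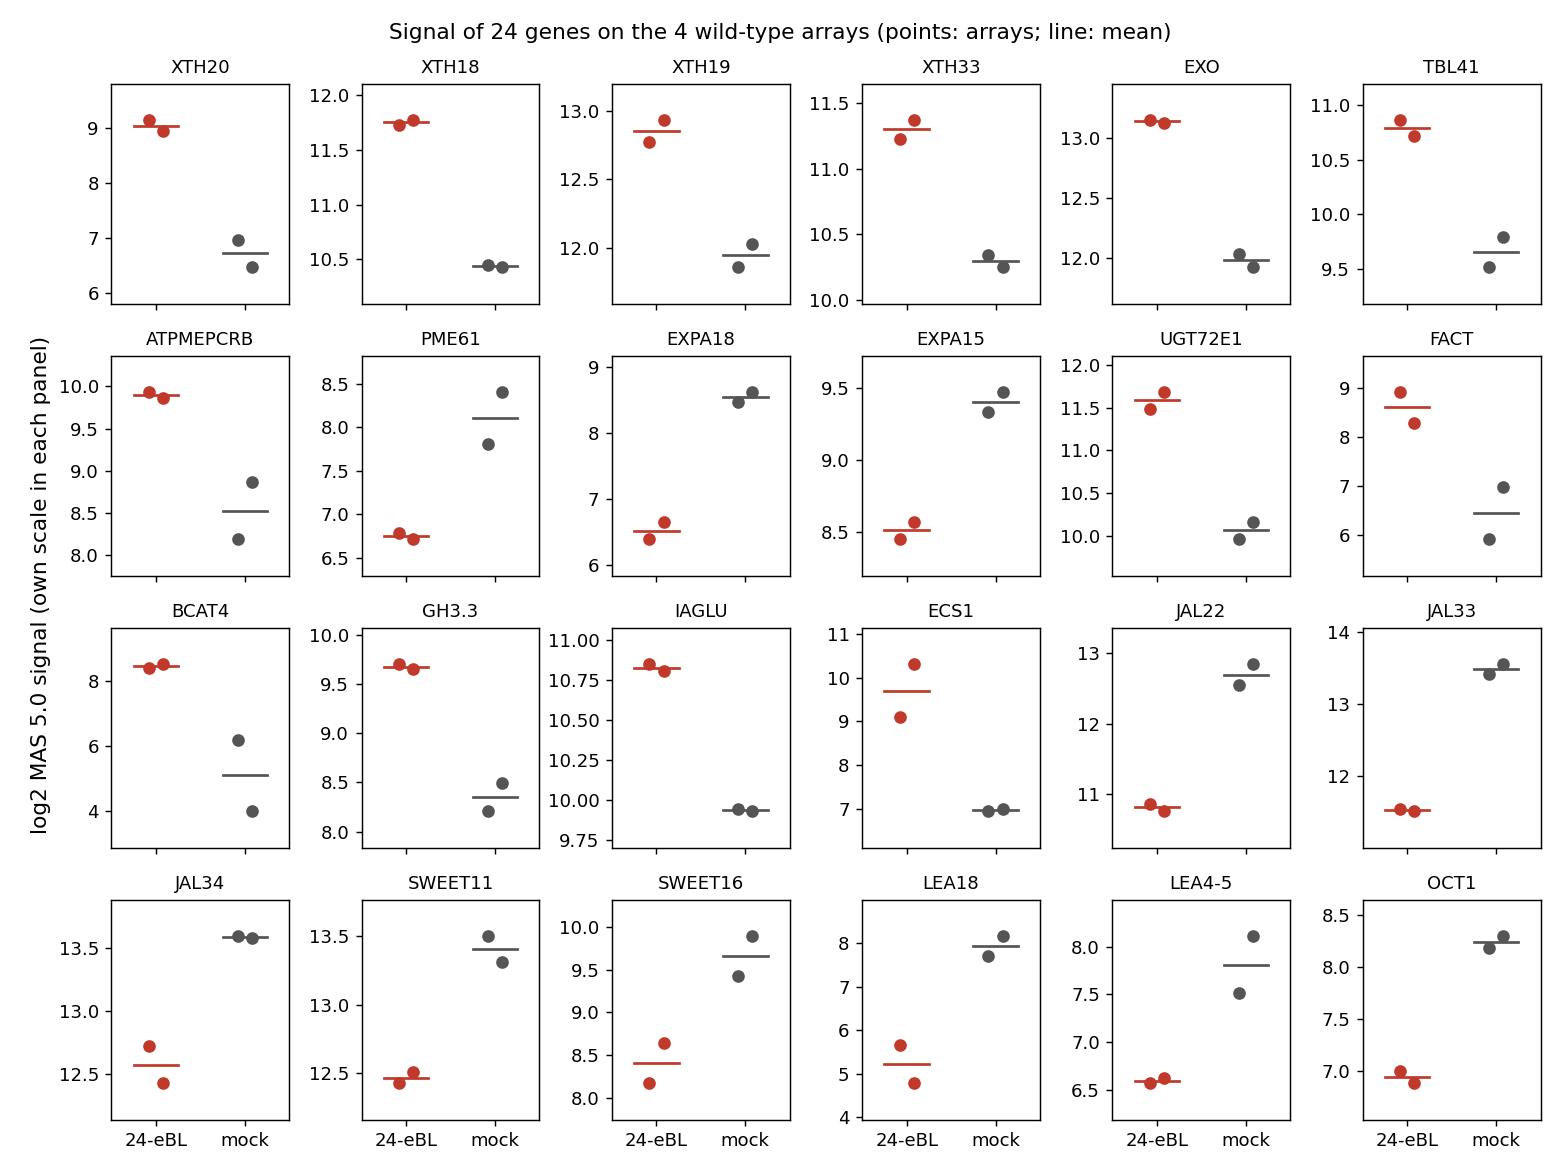
Each panel is 1 gene, with its log2 MAS 5.0 signal on the 2 arrays with 24-eBL (red, left) and the 2 mock arrays (grey, right). Points are arrays, the line is their mean, and each panel has its own vertical scale. The 24 genes were picked from the called genes, none of which had overlapping treatments, so no panel shows an overlap. Of all tested probe sets 45.9% did not overlap either. The widest gap between arrays of a treatment is in the mock arrays of BCAT4, at 6.18 and 4.00.

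Genes of defence peptides and of glucosinolate synthesis gave some of the largest rises, each through 1 or 2 members. Of 9 tested defence and antimicrobial peptide genes 2 rose and none fell, beside 4.19% of all tested genes called. The median was 0.52. ECS1, linked to disease resistance, had 9.09 and 10.30 with 24-eBL, against 6.95 and 7.0 in mock. The arrays with 24-eBL differed by 1.21, and even the lower of them was above both mock arrays. PDF1.4, a defensin-like gene, had 9.78 and 9.58 with 24-eBL, against 8.27 and 7.81 in mock, a change of 1.64 ± 0.24 or 3.11-fold (adjusted p = 0.000231). PDF1.2, often used as a marker of jasmonate responses, stood at 0.21 and was not called. BCAT4, an aminotransferase that starts the chain elongation of methionine for glucosinolates, had 8.39 and 8.5 with 24-eBL, against 6.18 and 4.00 in mock. Its mock arrays were far apart and 1 was dim, yet both lay at least 2.21 below the arrays with 24-eBL. Of 8 tested members of the glucosinolate list only BCAT4 was called, beside 4.19% of all tested genes. The changes of the other 7 lay between -0.72 and 0.52. BGLU40 and BGLU15, beta-glucosidase genes, rose among 8 tested members, beside 4.19% of all tested genes called. BGLU40 had 8.56 and 8.54 with 24-eBL, against 7.58 and 7.90 in mock (adjusted p = 0.0346). BGLU15 had 9.72 and 9.68 with 24-eBL, against 8.95 and 9.08 in mock (adjusted p = 0.0168). Both calls were lost when any of the 4 wild-type arrays was left out, with adjusted p up to 0.293 and 0.153.

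Jacalin-related lectins fell together. All 3 tested members were called lower, out of 4 with a single-gene probe set, beside 2.19% of all tested genes. The median was -1.89. JAL33 had 11.55 and 11.52 with 24-eBL, against 13.41 and 13.55 in mock. JAL34, next to it on chromosome 3, had 12.72 and 12.43 with 24-eBL, against 13.59 and 13.58 in mock. JAL22, on chromosome 2, had 10.86 and 10.76 with 24-eBL, against 12.55 and 12.84 in mock. All 3 were bright, and the mock arrays were above the arrays with 24-eBL by at least 0.86. The calls held in every leave-out fit and under all 10 other settings. As background, these lectins are known to form complexes with PYK10, the beta-glucosidase of ER bodies, which depend on NAI1 and NAI2. PYK10 had 14.30 and 14.03 with 24-eBL, against 14.54 and 14.51 in mock (-0.36 ± 0.13, adjusted p = 0.154). NAI2 had 10.43 and 9.71 with 24-eBL, against 10.57 and 11.01 in mock (-0.72 ± 0.23, adjusted p = 0.0873). NAI1, the transcription factor, stood at -0.48 and was not called.

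Several sugar transporters of the SWEET family were lower with 24-eBL. Of 14 SWEET genes with a single-gene probe set 8 were tested. Of these 4 fell and none rose, beside 4.19% of all tested genes called, and the median was -0.55. SWEET11, a plasma-membrane sucrose exporter of the phloem path, had 12.43 and 12.51 with 24-eBL, against 13.50 and 13.31 in mock (-0.94 ± 0.13, adjusted p = 0.000183). SWEET16, a carrier of the vacuole membrane, had 8.17 and 8.64 with 24-eBL, against 9.42 and 9.89 in mock (-1.25 ± 0.25, adjusted p = 0.00416). SWEET2, also of the vacuole membrane, had 6.64 and 6.90 with 24-eBL, against 8.07 and 7.65 in mock (-1.09 ± 0.29, adjusted p = 0.038). All 3 had both arrays with 24-eBL below both mock arrays. SWEET3 had 6.13 and 6.68 with 24-eBL, against 8.77 and 9.22 in mock, and was at least 5.9-fold lower (adjusted p = 0.0208). Only the call of SWEET11 held in all 12 leave-out fits. That of SWEET16 was lost without mock replicate 2 or 24-eBL replicate 1 (adjusted p up to 0.0897), that of SWEET3 without any of the 4 wild-type arrays (up to 0.171) and that of SWEET2 in 6 fits (up to 0.341). SWEET17 and SWEET1 stood at -0.05 and -0.15. SWEET13 had 5.25 and 6.02 with 24-eBL, against 4.93 and 3.87 in mock, all dim. In the list of other sugar transporters and invertases 1 of 6 tested members rose, beside 4.19% of all tested genes called. This was cwINV6, a fructan exohydrolase gene. It had 8.11 and 7.58 with 24-eBL, against 6.48 and 5.16 in mock, and its adjusted p reached 0.0614 without mock replicate 2 or 24-eBL replicate 1. SBE2.2, a starch-branching enzyme gene, had 8.97 and 8.42 with 24-eBL, against 7.98 and 7.41 in mock (1.0 ± 0.23, adjusted p = 0.0157). Its call was lost without mock replicate 2 or 24-eBL replicate 1 as well, with adjusted p up to 0.222.

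Several genes of dehydration proteins fell in the same seedlings. LEA proteins accumulate in drying seeds and stressed tissue. Of 9 LEA and dehydration genes tested by symbol 4 fell and none rose, beside 4.19% of all tested genes called. The median was -0.71. LEA18 had 5.65 and 4.79 with 24-eBL, against 7.70 and 8.15 in mock. Both arrays with 24-eBL were dim, so LEA18 was at least 3.52-fold lower (-2.71 ± 0.40, adjusted p = 0.000243), and its call held in all leave-out fits. LEA4-5 had 6.57 and 6.62 with 24-eBL, against 7.52 and 8.11 in mock (-1.22 ± 0.27, adjusted p = 0.0105). DI21, named drought-induced, had 10.61 and 10.66 with 24-eBL, against 11.46 and 11.22 in mock (-0.71 ± 0.16, adjusted p = 0.0139). Neither call held without 24-eBL replicate 1, nor, for LEA4-5, without mock replicate 2, nor, for DI21, without mock replicate 1 or 24-eBL replicate 2, and adjusted p reached 0.179 and 0.178. AtLEA4-1 was called as well (adjusted p = 0.00858), but dim values stood in both treatments and the call was lost without mock replicate 2 or 24-eBL replicate 2 (up to 0.126). M17 had dim values in both treatments, with 0.20 and 2.31 with 24-eBL, against 5.03 and 6.81 in mock, and was not called (adjusted p = 0.136). COR47, a dehydrin gene, was bright and stood at -0.31. Markers of seed in the arrays were few: of the 2 tested seed storage and oil body genes OLEO3 stood at 0.41 and PAP85 at -1.13, and neither was called.

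Nuclear genes of photosynthesis leaned low with 24-eBL by small amounts. Of 20 tested members encoded in the nucleus 16 had a change below 0, against 3686 of 8094 over all tested genes, and the median was -0.46. The lowest changes, CRR22 at -1.13, CRR41 at -0.84 and CRR21 at -0.80, had dim values in both arrays with 24-eBL and were not called. Only PSAN and PSBW, subunits of photosystem I and photosystem II, were called, both lower, beside 4.19% of all tested genes called. PSAN had 9.30 and 9.16 with 24-eBL, against 9.91 and 9.93 in mock (-0.69 ± 0.18, adjusted p = 0.038). PSBW had 11.10 and 11.06 with 24-eBL, against 11.69 and 11.62 in mock (-0.58 ± 0.16, adjusted p = 0.0421). CHLM, of chlorophyll synthesis, was called lower too (-0.59 ± 0.16, adjusted p = 0.037). All 3 lost their call in 6 of the 12 leave-out fits, including those without any 1 of the 4 wild-type arrays, and without the intensity trend of the variance. RCA, which encodes Rubisco activase, had 12.28 and 12.17 with 24-eBL, against 12.14 and 12.07 in mock (0.12 ± 0.14, adjusted p = 0.767). Of 58 tested genes of the plastid genome 1 was called higher and 1 lower, beside 4.19% of all tested genes called. rpl22, a ribosomal protein gene, had 7.18 and 6.65 with 24-eBL, against 5.29 and 6.33 in mock, and the call was lost in 8 leave-out fits. ccsA, of cytochrome c assembly, had 11.70 and 11.32 with 24-eBL, against 12.39 and 12.15 in mock (-0.76 ± 0.18, adjusted p = 0.0196; up to 0.212 without mock replicate 1 or 24-eBL replicate 2).

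Further lists are given by their counts. Limma called 0 of 7 histone genes and 0 of 8 genes of the cell cycle and mitosis. It also called 0 of 13 of autophagy and senescence and 0 of 8 tetraspanins. In that order 0, 3, 2 and 1 were below an unadjusted p of 0.05, beside 1248 of 8094 over all tested genes. Of 10 genes of heat shock and folding all had a change above 0, against 4408 of 8094 over all tested genes, with a median of 0.24. The highest, ATERDJ2B at 0.89, was dim on both arrays of each treatment, and so were ATJ1 and ATHSP22.0. The arrays of the 2 treatments overlapped for all members except ATERDJ2B and Hsp70-2. Only the chaperone gene Hsp70-2 was called, at 0.72, beside 4.19% of all tested genes called. The call of Hsp70-2 was lost in 8 leave-out fits. Of 11 genes of mineral nutrient transport 1 was called, beside 4.19% of all tested genes. This was OCT1, of the organic cation and carnitine transporters. OCT1 had 7.0 and 6.88 with 24-eBL, against 8.18 and 8.29 in mock (-1.30 ± 0.20, adjusted p = 0.000384), and its call held in every leave-out fit.

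Of the 339 called genes 66 had a symbol, 33 higher and 33 lower. Of the 66 calls 21 held in all leave-out fits and 31 under all 10 other settings. Without the intensity trend of the variance 27 of the 66 were no longer called, GH3.3, EXPA7, SWEET3, PMEPCRF, BAT1, WAG2, DI21, ccsA, SBE2.2, BGLU40 and BGLU15 among them. Without the filter on dim probe sets 14 were lost, among them EXLA3, SWEET2, SWEET3 and GH9B18. With the wild-type arrays fitted alone 12 were lost, Prx37 and AtLEA4-1 among them, and with dim values raised 8, UGT85A7 and AtLEA4-1 among them. Several further genes had changes of modest size. Among the higher ones were TPLATE, of an endocytic adaptor complex, at 0.81, the subtilase gene SBTI1.1 at 0.82, the aldehyde dehydrogenase gene ALDH3F1 at 0.70 and GPDHC1, a glycerol-3-phosphate dehydrogenase gene, at 0.60. Among the lower ones were 2 methionine sulfoxide reductase genes, MSRB6 at -1.38 and MSRB9 at -0.51. MCCA, of leucine breakdown, stood at -0.72 and AKINBETA1, a subunit of the energy-sensing kinase SnRK1, at -0.69. Each of these 8 calls was lost when some of the arrays were left out.

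Many of the largest changes were in genes that the tables used here give no symbol. AT5G57785 had 6.81 and 6.50 with 24-eBL, against 12.16 and 12.07 in mock, the largest fall among called genes. AT1G49570 had 12.42 and 12.76 with 24-eBL, against 10.03 and 9.95 in mock, a change of 2.60 ± 0.19 (adjusted p = 6.67e-08). It was the brightest of the 12 largest rises without dim values. AT4G36430 had 10.19 and 10.37 with 24-eBL, against 7.69 and 7.93 in mock (2.47 ± 0.16, adjusted p = 2.08e-08). AT2G23540 had 10.16 and 9.87 with 24-eBL, against 7.12 and 7.63 in mock (2.64 ± 0.20, adjusted p = 9.67e-08). AT5G03350 had 9.65 and 9.80 with 24-eBL, against 7.21 and 6.67 in mock (2.79 ± 0.30, adjusted p = 6.94e-06). Non-overlapping arrays and no dim value in the lower group were conditions for naming these 4 rises, so neither adds to their calls. The calls held in all 12 leave-out fits. Among the falls, AT4G37220 had 7.57 and 7.66 with 24-eBL, against 10.67 and 11.06 in mock (-3.25 ± 0.34, adjusted p = 4.91e-06). AT5G47950 had 7.59 and 7.83 with 24-eBL, against 10.09 and 10.22 in mock (-2.44 ± 0.17, adjusted p = 4.44e-08). AT3G02480 had 7.55 and 7.41 with 24-eBL, against 9.65 and 10.1 in mock (-2.39 ± 0.26, adjusted p = 6.94e-06). These 3 calls also held in all leave-out fits. A further rise rested on dim mock values: AT1G54020, at 3.94 ± 1.09, had both mock arrays dim at 1.95 and 3.01, was at least 1.3-fold higher, and lost its call in 9 of 12 leave-out fits.

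Neighbouring genes were compared in the order of assembly TAIR10.1. Of 2657 neighbouring pairs with both genes tested 216 had at least 1 called gene and 16 had both called. Over all tested genes 4.19% were called. In 12 of the 16 both genes moved the same way, 4 pairs higher and 8 lower. XTH18 and XTH19, JAL33 and JAL34, and AT5G23830 and AT5G23840 (-1.16 and -2.25) were among the 12. In the other 4 pairs the neighbours went opposite ways, as in AT4G33720 at 3.49 and AT4G33730 at -3.33. AT4G33720 had 10.14 and 9.06 with 24-eBL, against 6.21 and 6.02 in mock. AT4G33730 had 2.33 and 5.44 with 24-eBL, against 7.27 and 7.16 in mock, with both arrays with 24-eBL dim. The call of AT4G33720 was lost without 24-eBL replicate 1 (adjusted p = 0.0571), and that of AT4G33730 without either mock replicate or 24-eBL replicate 1 (up to 0.151). Another opposite pair was AT2G43610 at -0.70 and AT2G43620 at 3.27. AT1G65500 and AT1G73620 each stood in more than 1 of the 16 pairs, so the pairs are not all separate. The number of pairs was not tested against an expected share, nor was cross-hybridisation between neighbours tested. The share of genes called ran from 3.34% on chromosome 3 to 5.33% on chromosome 2.

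The mutant arrays are separate samples and show how far the wild-type genes moved the same way elsewhere. Of the 162 genes higher in wild type 142 (87.7%) had a change above 0 in msg2 and 58 were called higher there, while 2 were called lower. Of the 177 lower genes 157 (88.7%) had a change below 0 in msg2, with 70 called lower and 1 higher. In axr2 the counts were 96 of 162 (59.3%) and 120 of 177 (67.8%). There 17 of the higher genes were called higher and 8 lower, and 41 of the lower genes were called lower and 2 higher. Over all tested genes 50.3% had a change above 0 in msg2 and 46.2% in axr2, where 3.48% and 2.17% were called. The median change of the 162 higher genes was 0.58 in msg2, 0.10 in axr2 and 1.14 in wild type. For the 177 lower genes it was -0.63 in msg2, -0.30 in axr2 and -1.08 in wild type. Since wild type chose these genes, its own medians are not comparable with those of the mutants as measures of size.

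The difference of the response itself was tested for every gene. In msg2 against wild type 12 of 8094 genes were called (0.148%), and in axr2 against wild type 188 (2.32%). These differences use the same 4 wild-type arrays, so the 2 counts are not independent of each other or of the wild-type calls. Of the 66 called genes with a symbol 2 had a called difference in msg2 and 25 in axr2. ECS1 changed by 0.11 in msg2 and 2.72 in wild type, a difference of -2.61 ± 0.43 (adjusted p = 0.011). XTH20 had 7.89 and 7.60 with 24-eBL in axr2, against 8.24 and 8.85 in axr2 mock, the opposite order of wild type. Its change was -0.80 in axr2 and 2.33 in wild type, a difference of -3.13 ± 0.32 (adjusted p = 3.25e-05). In msg2 the change of XTH20 was 1.68 and called (adjusted p = 0.000186), and the difference from wild type, -0.64, was not (adjusted p = 0.564).

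Within gene groups the axr2 difference was uneven. Of the 4 XTH genes called in wild type XTH20, XTH18 and XTH19 had a called difference, while XTH33, at 0.39 in axr2 and 1.0 in wild type, did not (adjusted p = 0.256). EXO had 12.55 and 12.47 with 24-eBL in axr2, against 12.49 and 12.47 in axr2 mock, so that it did not move there by more than its replicates differed. The difference of EXO was -1.13 ± 0.19 (adjusted p = 0.00274). BCAT4 had 11.20 and 11.22 with 24-eBL in axr2, against 11.04 and 11.32 in axr2 mock. All 4 of these values were above all 4 wild-type values of BCAT4, of which the highest was 8.5. JAL33 and JAL22 had called differences of 1.47 and 1.01, both smaller falls in axr2, and that of JAL34, 0.53, was not called. The dehydration genes LEA18 and LEA4-5 were called lower in axr2 as well, at -2.14 and -1.16, and also in msg2, at -1.98 and -1.39. EXPA18 was called lower in all 3 genotypes, at -2.98 in msg2, -1.55 in axr2 and -2.02 in wild type. Its differences from wild type were not called, with adjusted p = 0.36 in msg2 and 0.523 in axr2. GH3.3 had 8.79 and 9.51 with 24-eBL in axr2, against 7.43 and 8.21 in axr2 mock, a change of 1.33 in axr2 and 1.33 in wild type. In msg2 GH3.3 changed by -0.31, and the difference from wild type, -1.63 ± 0.36, was not called (adjusted p = 0.0769). PRX52 changed by 2.57 in axr2, 0.55 in msg2 and 2.67 in wild type, and neither difference was called (adjusted p = 0.953 in axr2 and 0.17 in msg2).

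**Figure D4:**
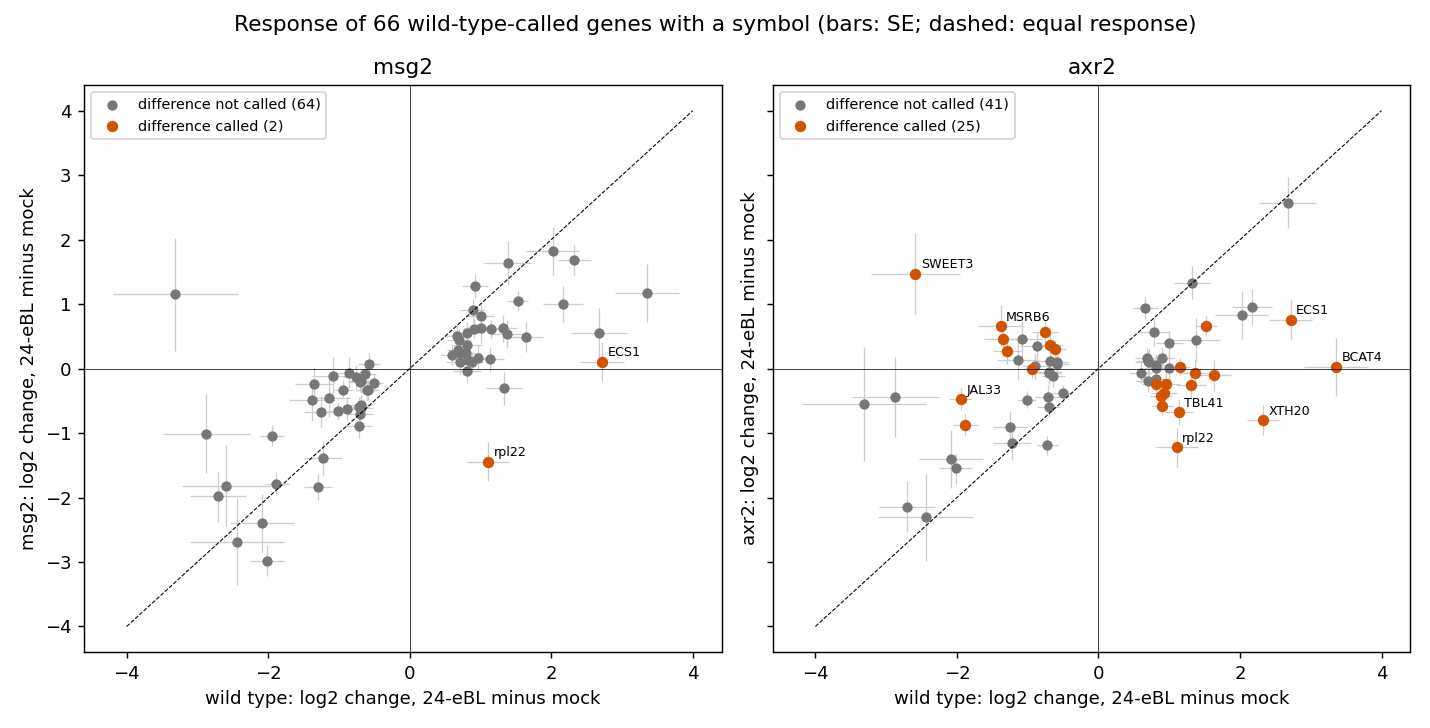
Each point is 1 of the 66 genes with a symbol called in wild type. The horizontal axis is the log2 change in wild type and the vertical axis that in msg2 (left) or axr2 (right), 24-eBL minus mock, with bars of 1 SE. The dashed line marks equal changes. Orange points have a called difference of the response, 2 in msg2 and 25 in axr2. In axr2 many genes lie near or across the horizontal zero line, XTH20 at -0.80 among them.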

How the data were processed

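The values were log2 signals deposited by the authors for Affymetrix ATH1 arrays hybridised with biotin-labelled RNA, 2 arrays in each of 6 groups. They were computed with MAS 5.0 and GeneSpring 11.0, per the labels and the design text. The 2% trimmed mean of the linear signal was 500.05 to 500.06 on every array, so no further scaling was applied in the main test. Detection calls were not used here. The number of arrays limits the precision.

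Of 22810 probe sets 64 controls were left out. The probe table paired 13513 of the other 22746 with 1 gene, 503 with several and 8730 with none. Symbols were updated to TAIR10.1 by gene ID for 13436 and by locus for 48, and 29 did not match. Probe sets were tested where at least 2 arrays exceeded their own 40th percentile, which left 15025. A gene with several probe sets was represented by the one with the highest mean signal, and 53 genes had several, 0 of them called in opposite directions.

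A model with 1 mean per group was fitted to all 12 arrays with limma 3.58.1 in R 4.3.3 (lmFit, eBayes with an intensity trend), leaving 6 residual degrees of freedom, to which the prior added 12. The script was tested on simulated data first. No pairing of samples by replicate number is stated. Deviations from the group means of same-numbered arrays correlated at 0.07 in wild type, 0.04 in msg2 and 0.06 in axr2. These small values cannot exclude a pairing that touches only some probe sets.

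Named genes were the 12 largest rises and 12 largest falls without dim values in the lower group, the 5 largest of each with them, and called members of gene lists with 3 or more tested members (up to 4 a list, and all members of lists of 10 or fewer). All called genes with a symbol, and single genes beyond the rule, were added after their values were seen. The 62 lists match gene symbols by pattern and so leave out genes known only by a locus identifier. In 54 at least 3 members were tested, and in 3 none was. The list written for cytosolic ribosomal proteins matched 13 plastid genes only, and the P450 list also took in 2 cyclophilin-like symbols, CYP59 and CYP71. In 8 other lists 13 symbols matched the pattern but not the list's name and were left out of the printed counts once seen: MAP1A, MAP1B, MAP1C, MAP1D, AUR3 (from auxin response), TPP2, STN1, FRO1, SAG101 (from defence), FDH, LCR, APS3 and APS4. Comparison, members and lists were chosen with earlier results of these data known. No set test was run.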

Additional observations from a re-analysis of the deposited data

Results flagged for a closer look

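The genes named for wild type whose response differed in a mutant are listed here, because the difference of the 2 responses was itself called by limma (Benjamini-Hochberg adjusted p under 0.05 over all 15025 probe sets). There were 40 such differences for axr2 and 5 for msg2, all as mutant response minus wild-type response on the log2 scale. The genes had been named for a large or called change in wild type, and such a choice by itself favours differences from wild type.

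Genes that rose in wild type had a lower response in axr2. Among those with a symbol the difference was BCAT4 -3.33, XTH20 -3.13, rpl22 -2.33, ECS1 -1.96, TBL41 -1.81, PDF1.4 -1.75, XTH18 -1.57, XTH19 -1.48, ATPMEPCRB -1.44, Prx37 -1.31, bZIP44 -1.30, ARPN -1.19, EXO -1.13, TPLATE -1.06 and UGT72E1 -0.86. Among those without one it was AT4G33720 -6.44, AT2G43620 -3.11, AT2G23540 -2.81, AT1G49570 -2.43, AT5G03350 -2.25, AT5G09480 -1.93, AT5G09370 -1.58, AT4G36430 -1.48 and AT3G58550 -1.22. Of these 24 genes 13 had a change below 0 in axr2 and 11 one above 0. Where dim values entered, the difference after lifting them to the 40th percentile was BCAT4 -2.33, rpl22 -1.93, ECS1 -2.25, AT4G33720 -4.76, AT2G43620 -2.98 and AT5G09370 -2.0.

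Genes that fell in wild type had a higher response in axr2, that is a smaller fall or a value above 0. Among those with a symbol the difference was SWEET3 4.06, MSRB6 2.04, PME61 1.82, OCT1 1.57, JAL33 1.47, ccsA 1.33, PSAN 1.06, JAL22 1.01, SWEET11 0.93 and DER2.1 0.90. Among those without one it was AT2G16190 3.90, AT2G16005 2.63, AT5G57785 2.51, AT4G37220 2.23, AT1G66800 1.80 and AT5G47950 1.10. AT5G57785 still fell by 2.95 in axr2, against a fall by 5.46 in wild type. With dim values lifted the difference was SWEET3 2.42, MSRB6 1.43, PME61 1.27, AT2G16190 2.04, AT2G16005 2.1 and AT4G37220 2.59. That of AT1G66800 was then -0.77, the opposite sign.

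For msg2 the differences were 3.21 for AT1G66800, 1.55 for AT2G43535, -2.18 for AT2G43620, -2.61 for ECS1 and -2.55 for rpl22. With dim values lifted they were 0.33 for AT1G66800, -2.06 for AT2G43620 and -2.16 for rpl22. rpl22 changed by -1.45 in msg2, -1.22 in axr2 and 1.11 in wild type, where the call itself was lost in 8 of 12 leave-out fits.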

How the results depend on the processing

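The number of called probe sets in wild type (701) stayed within 1.5 times under quantile normalisation, centring, an offset of 16, no filter, a stricter filter, dim values raised, a robust prior, the wild-type arrays alone and an adjusted p under 0.10. It was 397 without the intensity trend and 386 with a 2-fold minimum. It lay between 351 and 838 in the 12 leave-out fits. Centring each array on its median moved the median change of all tested genes to -0.01, and 278 probe sets were then called higher and 402 lower, against 330 and 371; without mock replicate 2 the split was 229 and 172.

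The count for msg2 minus wild type (32) was 14 without the filter, 1 without the trend, 57 at an adjusted p under 0.10 and 51 with the compared arrays alone, and 15 to 50 in the leave-out fits. That for axr2 minus wild type (391) was 247 without the filter, 126 without the trend and 703 at an adjusted p under 0.10, and 189 to 516 in the leave-out fits. Centring turned its split of 167 higher and 224 lower into 210 and 174.

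With the replicate number as a block 852 probe sets were called in wild type, 54 in msg2 minus wild type and 524 in axr2 minus wild type. No pairing by these numbers is stated, so the main test used no block.

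With dim values raised 2 named genes turned round without a call: AT3G52170 stood at 0.07 (adjusted p = 0.897) and PR-1-LIKE at 0.07 (adjusted p = 0.92). Of 94 named genes called in wild type 42 kept their call in all 12 leave-out fits and 53 under all 10 other settings; 31 lost it without the trend, 15 without the filter, 13 with the wild-type arrays alone, 11 with dim values raised and at most 7 under any of the rest. The cause of these changes was not tested. Signal near the floor and 2 arrays in each group limit the calls of small changes and of dim genes.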
